A study of Homo sapiens with 6 samples.

Results

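Immunoglobulin constant region genes and the J chain gene were examined for eIF4B cross-links in DoHH-2 and GM01953 cells. The members are 10 genes taken by their symbols, IGHM, IGHD, IGHG1, IGHG2, IGHG3, IGHA1, IGKC, IGLC2, IGLC3 and JCHAIN, of the 22125 genes with a count in at least 1 of the cell lines. DoHH-2 is a cell line from a diffuse large B-cell lymphoma and GM01953 is a control B-cell line from disease-free individuals, not isogenic with each other, and no treatment is named for either before UV cross-linking. The 6 samples are 4 replicates of DoHH-2 and 2 of GM01953, and in each of them cross-linked RNA fragments were recovered with an antibody against eIF4B, a translation initiation factor that stimulates the helicase eIF4A, by iCLIP, which reads each cross-link from UV-treated cells to a base. The values are cDNA counts at cross-link positions, pooled over the replicates of each cell line.

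An antibody is built of heavy and light chains, each with a variable region that binds antigen and a constant region that sets the class. The constant region genes lie in order along the heavy chain locus, IGHM first, and a B cell that has not switched class makes IgM and IgD from 1 RNA by alternative splicing, whereas IgG and IgA need recombination of the DNA. Kappa light chains use IGKC and lambda light chains use an IGLC gene, and the J chain, encoded by JCHAIN outside the immunoglobulin loci, joins IgM and IgA into polymers. IgM can be anchored in the membrane as part of the B-cell receptor or secreted, depending on which 3′ exons its mRNA carries.

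The table of DoHH-2 held 2033156 cDNA counts at 1179243 positions and that of GM01953 held 167197 at 78474 positions, so that DoHH-2 was 12.2 times deeper. With 3 counts taken as the smallest number that could be told from 0, the limit was 1.48 counts per 1000000 counts of the cell line (CPM) in DoHH-2 and 17.9 CPM in GM01953. No value belongs to a replicate, and therefore no SD and no test between the cell lines could be computed. All intervals are 95% intervals (exact Poisson for counts, exact conditional binomial for ratios, Wilson for shares) that cover counting error only. The amount of each RNA was not part of these tables, so that more RNA, more cells with that RNA and more eIF4B contact per RNA molecule cannot be told apart in any value given here.

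B-cell identity was checked with lists of marker genes. Of 6 B-cell markers, 5 had counts in DoHH-2 and 6 in GM01953, with CD22 at 0 in DoHH-2 and 27 in GM01953. All 6 myeloid markers were at 0 in both cell lines, and of 6 T-cell markers the only counts were 21 on TRAC in GM01953. The B-cell markers summed to 386 CPM in DoHH-2, with PAX5 the most abundant (554 counts), and to 1824 CPM in GM01953, with MS4A1 the most abundant (152 counts). MS4A1, which encodes CD20, was at 6.39 CPM in DoHH-2 and 909 CPM in GM01953. Plasma cell markers summed to 388 and 215 CPM. Most of this difference lay in MZB1, with 236 CPM in DoHH-2 and 65.8 in GM01953, while TNFRSF17 was at 39.8 and 65.8 CPM. Of 6 markers of activated or lymphoblastoid B cells, 4 had counts in DoHH-2 and 6 in GM01953, with sums of 139 and 1130 CPM. EBI3 and FCER2 were at 0 in DoHH-2 and had 18 and 42 counts in GM01953, whereas CD70 had 138 and 29 counts. Germinal centre markers summed to 431 CPM in DoHH-2 and 275 in GM01953. The part of these differences in the values below was not tested.

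The members together carried 9240 counts (0.454% of all, 0.445–0.464%) in DoHH-2 and 375 (0.224%, 0.203–0.248%) in GM01953. The heavy chain genes held 2541 and 86 of these counts, the light chain genes 2697 and 198, and JCHAIN 4002 and 91. JCHAIN was thus the leading member in DoHH-2, whereas IGKC led in GM01953. IGHG2 had no count in either cell line, and 3 further members (IGHG1, IGHG3 and IGLC3) had none in GM01953.

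**Figure D1:**
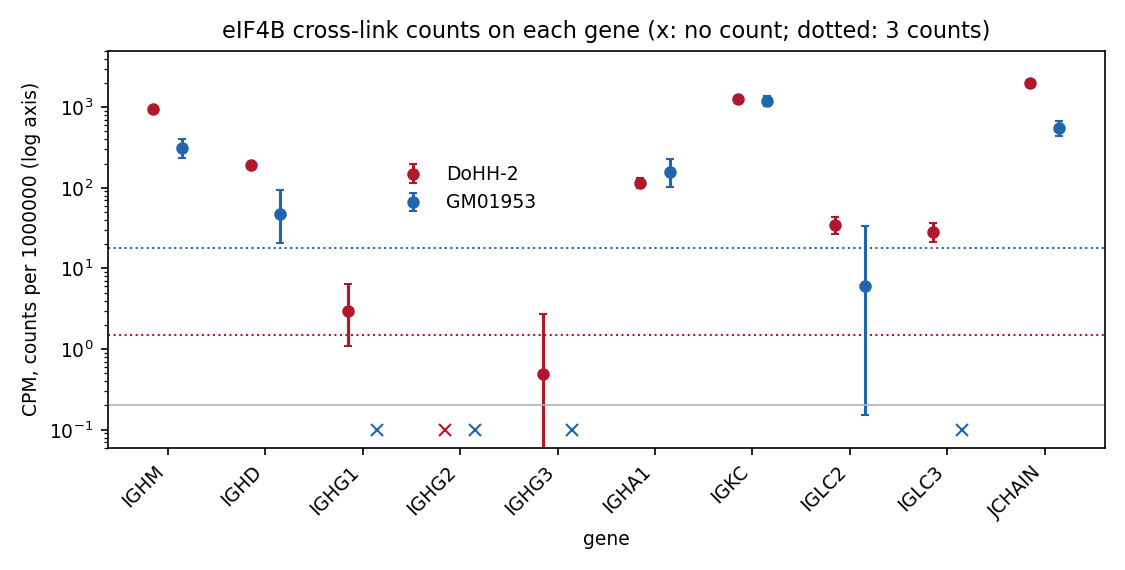
CPM on each of the 10 genes (logarithmic axis) in DoHH-2 (red) and GM01953 (blue), with exact Poisson 95% intervals. Crosses below the grey line mark genes without a count and dotted lines mark 3 counts in each cell line. IGHM, IGHD and JCHAIN lie higher in DoHH-2, IGKC lies at nearly the same level in both, and the IgG genes lie near or below the limit.

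A gene was called bound with more than 20 counts at positions with a false discovery rate (FDR) below 0.05. In DoHH-2 the bound members were 7, IGHM, IGHD, IGHA1, IGKC, IGLC2, IGLC3 and JCHAIN, against a background of 22% of the 21165 genes with a count in DoHH-2. In GM01953 the bound members were 4, IGHM, IGHA1, IGKC and JCHAIN, against 7.28% of 12427 genes. Without an FDR threshold, 7 members had more than 20 counts in DoHH-2 and 4 in GM01953, against 46.5% and 12.8% of genes. When DoHH-2 counts were drawn down to the GM01953 total, again without a threshold, 4 members passed, against 12.6% of 12687 genes. This matches the total alone, since counts per position were 1.72 in DoHH-2 and 2.13 in GM01953, with 83.9% and 60.8% of positions at a single count.

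IGHM encodes the constant region of the IgM heavy chain (chr14:105851705-105856218 of GRCh38, minus strand). It had 1912 counts at 779 positions in DoHH-2 (940 CPM, 899–984) and 52 counts at 24 positions in GM01953 (311 CPM, 232–408). The share of the library was 3.02 times higher in DoHH-2 (2.30–4.06), and the intervals of the levels did not overlap. Over the alternative measures the ratio ranged from 2.16, by the number of positions, to 5.13, by counts at positions with an FDR below 0.01.

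IGHD encodes the constant region of IgD and lies just 3′ of IGHM (chr14:105836765-105845677, minus strand). Its counts were 388 in DoHH-2 (191 CPM, 172–211) and 8 in GM01953 (47.8 CPM, 20.7–94.3). The ratio was 3.99 (2.00–9.30), close to that of IGHM, and IGHD relative to IGHM was 0.203 in DoHH-2 and 0.154 in GM01953. This ratio rests on 8 counts in GM01953, and it was 7.85 without the highest position in each cell line and 1.12 with an FDR below 0.01.

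IGHA1, the constant region gene of IgA1 (chr14:105703995-105708665, minus strand), had 234 counts in DoHH-2 (115 CPM, 101–131) and 26 in GM01953 (156 CPM, 102–228). The intervals overlap, and the ratio of DoHH-2 over GM01953 was 0.740 (0.492–1.16). It was 1.01 without the highest position of each cell line, which held 8 of the 26 counts in GM01953, and 0.424 at positions with an FDR below 0.05. IGHA2, the gene for the second IgA subclass and no member, had 1 count in DoHH-2 and 26 in GM01953. With both IgA genes summed the ratio was 0.372, a setting that was added after the values had been seen.

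The IgG genes carried almost nothing. IGHG1 (chr14:105736343-105743071) had 6 counts at 6 positions in DoHH-2, or 2.95 CPM (1.08–6.42), IGHG3 (chr14:105764503-105771405) had 1 and IGHG2 (chr14:105639559-105644790) had 0. In GM01953 all of them were at 0, below the limit of 17.9 CPM, and the intervals reach up to 22.1 CPM. These genes are near copies of one another, and 27.3% (IGHG1), 32.5% (IGHG2) and 32.8% (IGHG3) of their exon bases start a 31-nt word that occurs once in the genome, so that reads between them could be lost or split by the mapping.

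Among the light chain genes, IGKC (kappa, chr2:88857161-88857683, minus strand) had 2570 counts at 387 positions in DoHH-2 and 197 counts at 71 positions in GM01953. These were 1264 (1216–1314) and 1178 (1019–1355) CPM, and IGKC held rank 57 among all genes in both cell lines, between RPL5 and HNRNPA2B1 in GM01953. The ratio was 1.07 (0.928–1.25). It was 1.96 by counts at positions with an FDR below 0.05. The ratio of the number of positions, 0.363, is not comparable, since a cross-link at each of the 523 bases of IGKC in DoHH-2 would raise it to no more than 0.490. Every IGKC position was also listed under the overlapping gene AC096579.15.

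IGLC2 (chr22:22900976-22901437, plus strand) had 70 counts in DoHH-2 (34.4 CPM, 26.8–43.5) and 1 in GM01953, a ratio of 5.76 with an interval from 1.0 to 231. IGLC3 (chr22:22906342-22906803, plus strand) had 57 counts in DoHH-2 (28.0 CPM, 21.2–36.3) and none in GM01953. It was at least 1.56-fold higher in DoHH-2 when 3 counts per library are taken as the limit. The lower bound of the ratio interval was 1.23. The lambda genes are near-identical copies, with 16.5% of the exon bases unique in IGLC2 and 15.8% in IGLC3. Of the DoHH-2 counts, 82.9% for IGLC2 and 50.9% for IGLC3 lay before a unique word, and their split between the copies is uncertain.

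JCHAIN (chr4:70655541-70681817, minus strand) had 4002 counts at 910 positions in DoHH-2 and 91 at 39 positions in GM01953. Its level was 1968 CPM (1908–2030) in DoHH-2, at rank 38 of 21165 genes between ATF5 and HIST1H4L, and 544 (438–668) in GM01953, at rank 140 of 12427. The ratio of DoHH-2 over GM01953 was 3.62 (2.94–4.50). By the number of positions it was 1.55, below 2-fold, with 54.3% of the exon bases already hit in DoHH-2.

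Of the 7 members with at least 10 counts in both cell lines together, 4 (IGHM, IGHD, IGLC2 and JCHAIN) had at least a 2-fold higher share in DoHH-2, against 20.6% of 12019 genes, and 0 had a 2-fold higher share in GM01953, against 23.4%. The call of IGLC2 rests on 1 count in GM01953, below the limit of 3, whereas the others rest on at least 8. The median ratio of the 7 members was 3.02 in favour of DoHH-2, beside 0.987 over all 12019 genes. For these medians a 0 was set to 3 counts, as for IGLC3, but the 1 count of IGLC2 was kept. With IGLC2 set to 3 counts as well, the median of the members would be lower. Both lambda genes reached 10 counts through DoHH-2 alone. Among genes with at least 100 counts the members were 3 of 5 higher in DoHH-2 and 0 higher in GM01953, against 28% and 8.5% of 4775 genes, and the medians were 3.02 and 1.28.

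**Figure D2:**
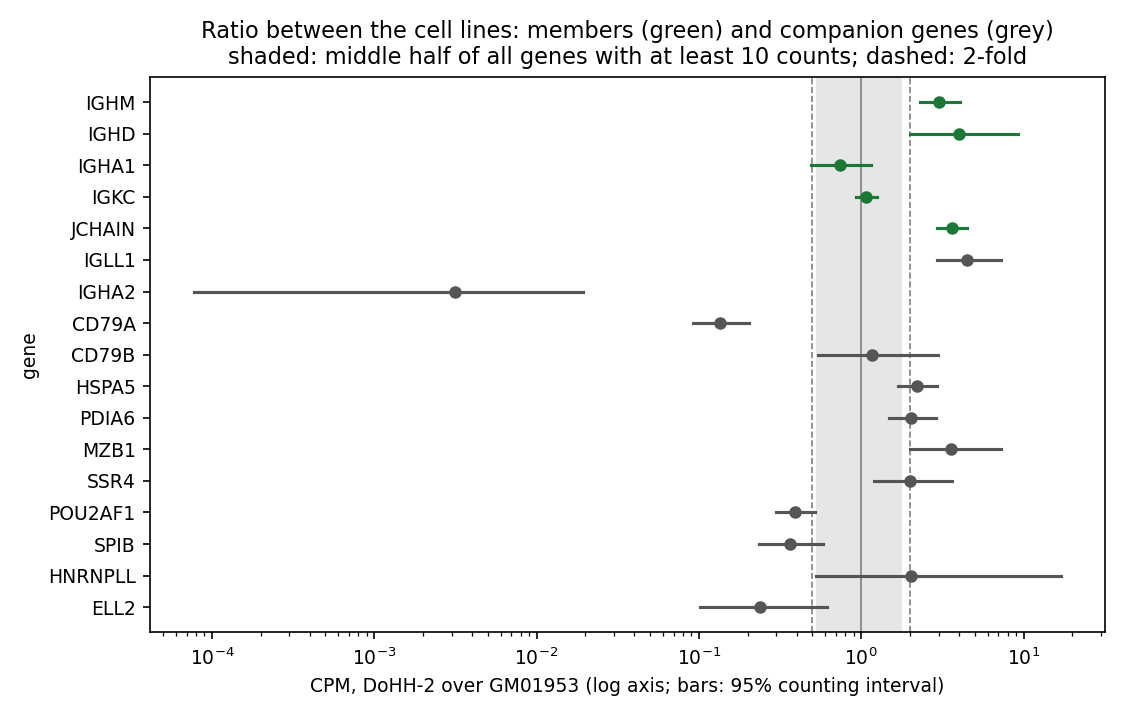
Ratio of CPM, DoHH-2 over GM01953 (logarithmic axis), for the 5 members with at least 8 counts in each cell line (green) and for companion genes (grey), with 95% counting intervals. The shaded band holds the middle of all genes with at least 10 counts, from quartile to quartile, and dashed lines mark 2-fold. IGHM, IGHD and JCHAIN lie to the right of the band, IGKC lies at 1.07 and IGHA2 lies far to the left.

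Levels of different genes were compared per kb of exon, in CPM per kb at exon positions. In DoHH-2 the order was IGKC (2417), JCHAIN (1241), IGHM (485), IGHD (80.0), IGHA1 (78.5), IGLC2 (74.5), IGLC3 (60.7), IGHG1 (1.07) and IGHG3 (0.170). The intervals of IGHD (70.8–90.1), IGHA1 (68.6–89.4), IGLC2 (58.1–94.2) and IGLC3 (46.0–78.6) overlap on this scale. Set per kb of unique exon sequence, with counts before a unique word alone, IGHD stayed at 80.0 whereas IGHA1 was at 140, IGLC3 at 195 and IGLC2 at 375 CPM per kb, so that the order of these 4 depends on the length used. In GM01953 IGKC (2253, 1949–2590) stood above JCHAIN (344, 277–424), and JCHAIN above IGHM (166, 124–218). The interval of IGHM overlaps that of IGHA1 (109, 71.4–160), and per kb of unique exon sequence IGHA1 (212) stood above IGHM (166). IGHD (14.3) and IGLC2 (12.9) were lowest among the members with a count.

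The isotype composition asks which classes carry eIF4B cross-links within each cell line. IGHM held the largest share of the counts on the heavy chain members in both, 75.2% (73.5–76.9%) of 2541 in DoHH-2 and 60.5% (49.9–70.1%) of 86 in GM01953. IGHA1 held 9.21% (8.15–10.4%) in DoHH-2 and 30.2% (21.5–40.6%) in GM01953, and IGHM was 8.17 times IGHA1 in the former and 2.00 times in the latter. IGHD held 15.3% (13.9–16.7%) and 9.30% (4.79–17.3%). Thus the intervals of the cell lines were apart for IGHM and IGHA1 and overlapped for IGHD. By the number of positions, however, IGHM held 62.5% in DoHH-2 and 64.9% in GM01953, without the lower share in GM01953, and IGHA1 held 12.2% and 24.3%. Numbers of positions cannot grow with counts at bases already hit, which were 38.6% of the exon bases of IGHM and 10.3% of those of IGHA1 in DoHH-2. IGHA2 is not among the members, and with IGHA2 and IGHG4 added, a setting chosen after the values had been seen, the IGHM share was 75.2% in DoHH-2 and 46.4% in GM01953. On that scale the IgA genes together had 235 counts in DoHH-2 (9.24%, 8.17–10.4%) and 52 in GM01953 (46.4%, 37.5–55.6%). IGHM also had 52 counts in GM01953, so that IgM did not lead IgA there, whereas IGHM was 8.14 times the IgA sum in DoHH-2. With counts set per kb of exon, IGHM held 75.2% in DoHH-2 and 57.4% in GM01953, and IGHA1 held 12.2% and 37.7%.

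Kappa counts dominated the light chains in both cell lines, with IGKC at 95.3% (94.4–96.0%) of 2697 in DoHH-2 and 99.5% (97.2–99.9%) of 198 in GM01953. IGLC2 held 2.60% and IGLC3 2.11% in DoHH-2. The light chain genes together had 1.06 times the counts of the heavy chain genes in DoHH-2 and 2.30 times in GM01953. In counts not set per length, there were 1.56 on JCHAIN for each on IGKC in DoHH-2 and 0.462 in GM01953, while JCHAIN relative to IGHM was 2.09 and 1.75.

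**Figure D3:**
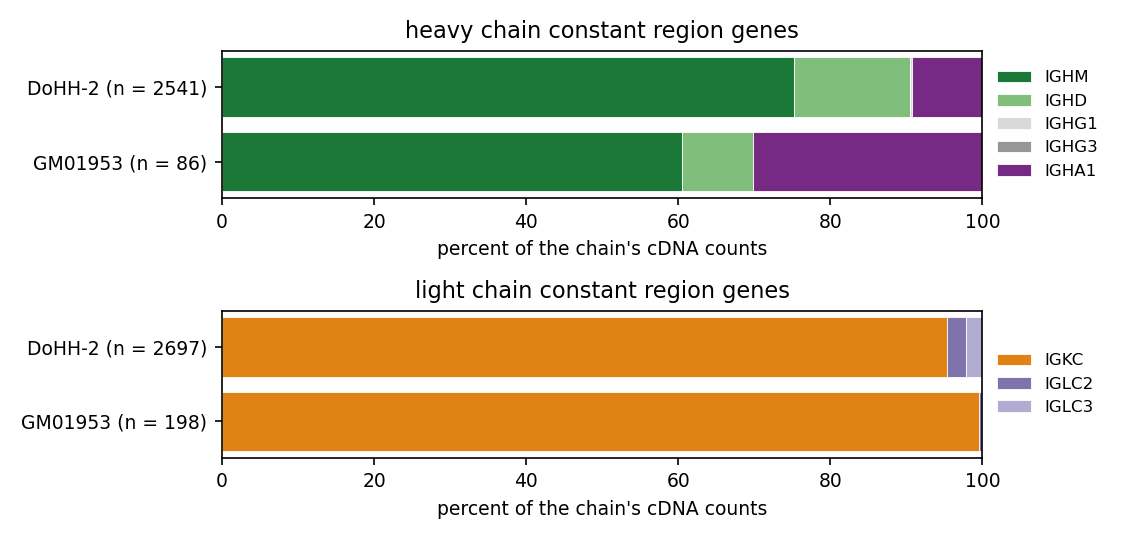
Share of each gene (percent, horizontal axis) among the counts on the heavy chain members (upper panel) and the light chain members (lower panel) in DoHH-2 and GM01953, with the number of counts behind each bar. IGHM is the widest segment of both heavy chain bars, IGHA1 is wider in GM01953 (30.2%) than in DoHH-2 (9.21%), and IGKC fills over 95% of both light chain bars.

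Exons held 96.9% of the member counts in DoHH-2, and 98.4% in GM01953. The positions found in GM01953 were largely the ones also found in DoHH-2, 22 of 24 for IGHM, 66 of 71 for IGKC and 38 of 39 for JCHAIN, compared with 33.0% of all 78474 GM01953 positions. The DoHH-2 counts covered 38.6%, 74.0% and 54.3% of the exon bases of these genes, which bears on that overlap. For IGHA1, 4 of 9 positions were shared, with 10.3% of its exon bases covered in DoHH-2.

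The IGKC positions with the most counts are shown because both cell lines share them. Each sequence is the RNA strand in DNA letters, with the cross-linked base in capitals, and the coordinates give the window shown.
IGKC 3′ UTR, chr2:88857232-88857260, minus strand: cctccagctcatctTtcacctcacccccc
IGKC 3′ UTR, chr2:88857275-88857303, minus strand: gcctctgaccctttTtccacaggggacct
The T in the former window held 115 counts in DoHH-2, the highest of the gene, and 8 in GM01953. That in the latter window held 85 counts in DoHH-2, the next highest, and 15 in GM01953, where it was the highest. Both cross-linked bases lie in runs of C and T.

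A 50-nt window that starts at base 88857244 in DoHH-2 and 88857241 in GM01953 was the densest of IGKC in either cell line, with 30.4% (28.6–32.2%) and 33.5% (27.3–40.4%) of its counts. The 3′ UTR as a whole held 59.1% (57.2–61.0%) of the IGKC counts in DoHH-2 and 53.3% (46.3–60.1%) in GM01953, on 200 of its 523 exon bases. The bases within 50 nt of the stop codon held 15% (13.7–16.4%) in DoHH-2 and 24.9% (19.4–31.4%) in GM01953. The 3′ UTR share in DoHH-2 was 89.7% at positions with an FDR below 0.05 and 37.2% by the number of positions, a measure limited by the 74.0% of bases already hit.

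JCHAIN was read along the 4 exons of its main transcript. The coding sequence held 46.2% of its counts in both cell lines (44.6–47.7% in DoHH-2 and 36.3–56.3% in GM01953), and the 3′ UTR held 45.6% (44–47.1%) and 41.8% (32.2–52.0%). Introns, 24731 of the bases of this gene, held 2.52% and 2.20%. Exon 2 held 13.9% (12.8–15%) in DoHH-2 and 3.30% (1.13–9.25%) in GM01953, whereas exon 3 held 5.0% (4.36–5.72%) and 12.1% (6.89–20.4%). The GM01953 shares rest on 3 counts at 2 positions in exon 2 and 11 counts at 4 positions in exon 3. Of the latter, 6 lay at 1 base. Bases within 50 nt of the start codon held 9.27% (8.41–10.2%) in DoHH-2, compared with 16.5% (10.3–25.4%) in GM01953.

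The highest JCHAIN position in DoHH-2 lay in the coding sequence, with 67 counts and none in GM01953. In GM01953, 3 positions shared the highest count of 6, of which 1 lay in the coding sequence, 1 in another exon and 1 in a run of T in the 3′ UTR, where DoHH-2 had 5 counts. The first and the last of these 4 positions are shown, the latter because the T runs are described next.
JCHAIN coding sequence, chr4:70656419-70656447, minus strand: agacctgctacactTatgacagaaacaag
JCHAIN 3′ UTR, chr4:70655932-70655960, minus strand: gcttttttttttttTtttgactttgcctt
JCHAIN is the member whose exons hold runs of at least 10 T, 2 of them in the 3′ UTR with 30 bases or 1.94% of its exon bases. These runs held 350 counts (8.75%, 7.91–9.66%) in DoHH-2 and 15 (16.5%, 10.3–25.4%) in GM01953. The run of 14 T held 230 counts in DoHH-2 and 3 in GM01953, whereas the run of 16 T held 120 and 12.

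**Figure D4:**
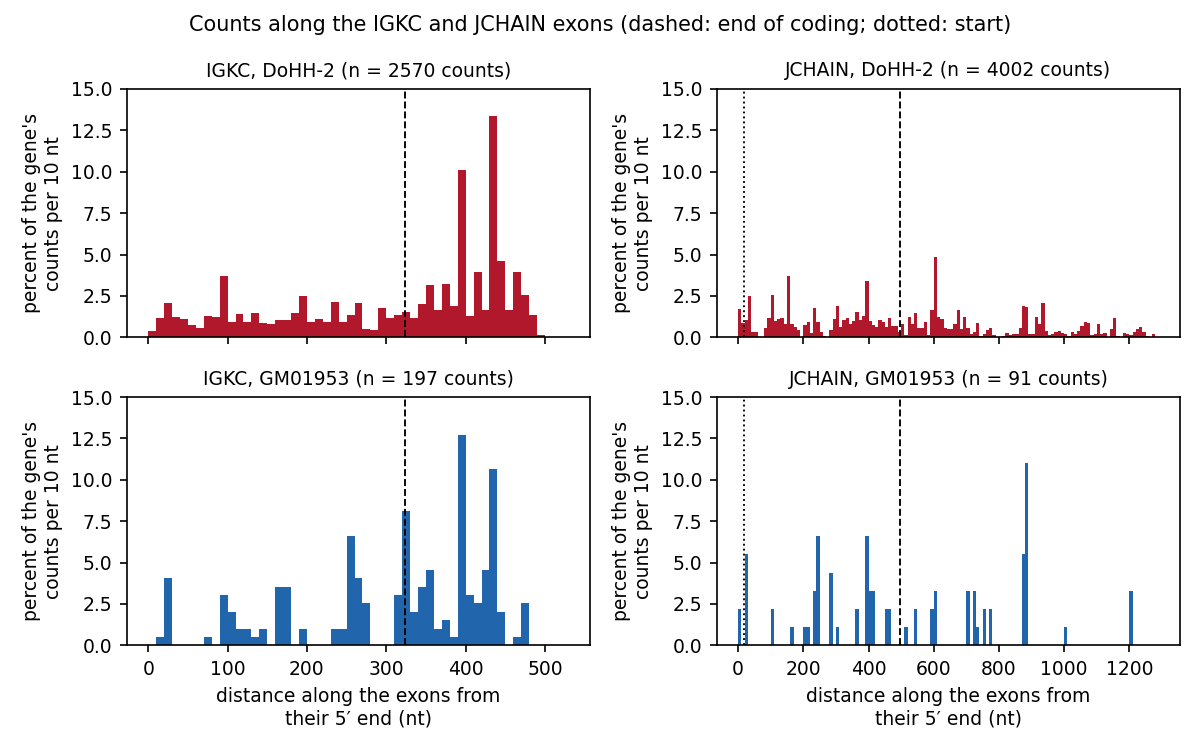
Percent of each gene's counts per 10 nt (vertical axis) against the distance along its exons from their 5′ end (nt), for IGKC (left) and JCHAIN (right) in DoHH-2 (upper) and GM01953 (lower). Dashed lines mark the end of the coding sequence and dotted lines its start. The IGKC peaks in the 3′ UTR stand at the same distances in both cell lines, whereas JCHAIN counts are spread along the mRNA. The highest JCHAIN bin in GM01953 holds the 3′ end of the run of 16 T and bases just past it.

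IGHM counts were read by exon, since its last 2 exons encode the membrane anchor and the end of exon 4 is kept in the secreted form. The constant domain exons held 70.6% (68.5–72.6%) of IGHM counts in DoHH-2, the membrane exons 330 counts (17.3%, 15.6–19.0%) and the secreted-form end 166 counts (8.68%, 7.5–10.0%). Per base the membrane exons had 85.5 and the secreted-form end 89.7 counts per 100 nt in DoHH-2, a ratio of 0.953. In GM01953 these parts held 4 and 2 counts, each at 1 position, too few to compare.

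Exon 1 of IGHM held 31.1% (29.1–33.2%) of its counts in DoHH-2 and 57.7% (44.2–70.1%) in GM01953, without overlap of the intervals. Exon 4 held 18.1% (16.4–19.9%) and 3.85% (1.06–13.0%). The densest exon per base in DoHH-2 was also exon 1, with 190 counts per 100 nt, followed by exon 3 with 116. Introns held 67 counts (3.50%) in DoHH-2 and 0 of 52 in GM01953, which allows up to 6.88%. Of the 4 IGHM positions with the most counts in DoHH-2, 3 are shown, 1 each from exon 1, the last membrane exon and the secreted-form end. The other, with 24 counts, lies in exon 1 again.
IGHM exon 1, chr14:105856182-105856210, minus strand: atccgccccaacccTtttccccctcgtct
IGHM membrane exon, chr14:105851759-105851787, minus strand: cacgaggtgggctcTaccccacactgctt
IGHM secreted-form end, chr14:105854238-105854266, minus strand: gagatgttgcatctTataaaattagaaat
They held 33, 30 and 22 counts in DoHH-2 and none in GM01953.

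IGHD introns held 115 of its 388 counts (29.6%, 25.3–34.4%) in DoHH-2, on 7235 of the 8913 bases of the gene, whereas introns held 3.50% (2.77–4.43%) for IGHM, 2.99% (1.46–6.04%) for IGHA1 and 2.52% (2.08–3.06%) for JCHAIN. The membrane exons held 97 counts (25%) and the constant domain exons 176 (45.4%). Per 100 nt these were 1.59 counts in introns, 17.5 in membrane exons and 15.6 in constant domain exons. In GM01953, 4 of the 8 counts lay at 1 intron position.

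IGHA1 counts lay mostly in the first exons in DoHH-2, with 45.7% (39.5–52.1%) in exon 1, 44.4% (38.2–50.8%) in exon 2 and 6.84% (4.25–10.8%) in exon 3. In GM01953 they were 7.69% (2.14–24.1%), 38.5% (22.4–57.5%) and 53.8% (35.5–71.2%). The first of these shares is 2 counts at 1 position, below the limit of 3. The share of bases that start a unique word falls along these exons, from 70.4% through 63.6% to 44.5%, and its part in the distribution within a cell line was not tested. The exon 3 counts of GM01953 were 14 counts at 3 positions, 8 of them at 1 base where DoHH-2 had 0. Membrane exons of IGHA1 had 0 counts in both cell lines, which by counting alone allows up to 1.62% of its counts in DoHH-2 and 12.9% in GM01953. Only 28.7% of these membrane exon bases start a unique word, so that reads there could be lost or assigned to IGHA2, and the true share could be higher than these limits. The position that led in DoHH-2 with 12 counts had 4 in GM01953.
IGHA1 exon 2, chr14:105708126-105708154, minus strand: tccactccagttccCtcaactccacctac
The position that led in GM01953 with 8 counts was in the secreted-form end.
IGHA1 secreted-form end, chr14:105707171-105707199, minus strand: tcatggcggaggtgGacggcacctgctac

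**Figure D5:**
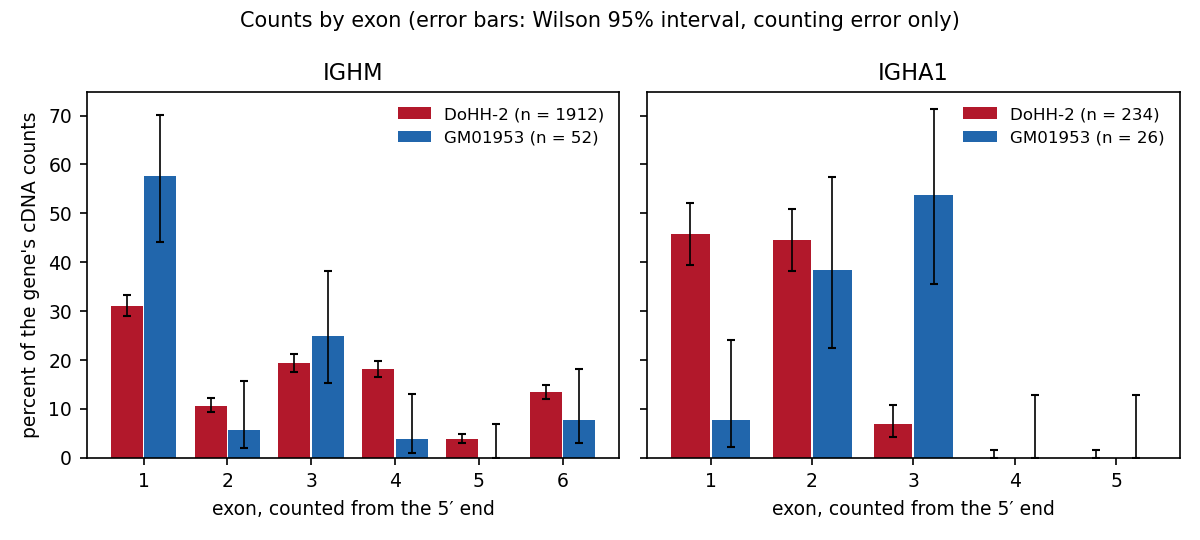
Percent of the gene's counts (vertical axis) in each exon of IGHM (left) and IGHA1 (right), counted from the 5′ end, in DoHH-2 (red) and GM01953 (blue), with Wilson 95% intervals. Exons 5 and 6 of IGHM and exons 4 and 5 of IGHA1 are membrane exons. GM01953 is higher in exon 1 of IGHM and in exon 3 of IGHA1, and DoHH-2 is higher in exon 1 of IGHA1. In that last exon GM01953 had 2 counts, below the limit of 3.

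The lambda counts of DoHH-2 gathered in short stretches. For IGLC2, 51 of 70 counts (72.9%, 61.5–81.9%) lay within 50 nt of the stop codon, whereas for IGLC3 all 57 counts lay in the coding sequence and none within 50 nt of the stop codon. In these near-identical copies 21.6% (IGLC2) and 20.6% (IGLC3) of the coding bases and 4.93% of the 3′ UTR bases of each start a unique word, so that where counts gather or are missing may follow where reads could be placed, which was not tested. A 50-nt window in the coding sequence of IGLC3 held 42 of its 57 counts (73.7%, 61.0–83.4%). The leading IGLC2 position, with 12 counts, is shown with its surroundings.
IGLC2 3′ UTR, chr22:22901285-22901313, plus strand: aatgttcataggttCtcaaccctcacccc

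The base at the cross-link was C or T for 70.5% of member counts in DoHH-2 and 65.3% in GM01953, beside 51.6% of the exon bases of the 7 bound members. Over all positions assigned to a gene the shares were 65.9% and 65.3%. T alone held 43.1% of member counts in DoHH-2 and 37.6% in GM01953, on exons with 20.4% T, and 44% and 41.1% over all gene-assigned positions. By the number of positions instead of counts, C or T made up 60.8% for the members and 65.4% for all gene-assigned positions in DoHH-2, and 66.2% and 65.0% in GM01953. T alone made up 29.7% and 43.9% in DoHH-2, and 31.1% and 40.0% in GM01953. Thus in DoHH-2 the members lay above all genes in C or T by counts and below them by positions, and in T they lay below by either measure. By counts, T among members ranged in DoHH-2 from 20.1% (IGHA1) and 27.6% (IGHD) through 34.9% (IGHM) and 42.6% (IGKC) to 50.8% (JCHAIN), and the T content of their exons was 16.7%, 16.2%, 18.7%, 22.2% and 32.2%. The neighbouring bases were also often T. By counts, T held 42.7% (DoHH-2) and 42.4% (GM01953) of members at the next base 3′, and 40.7% and 29.9% at the next base 5′. Over all gene-assigned positions these were 46.4% and 44.1% on the 3′ side, and 41.0% and 38.3% on the 5′ side. UV cross-linking itself favours T, and its part in these shares was not tested.

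Genes that work with the immunoglobulins were read from lists. Of 14 other immunoglobulin genes, 5 had at least 10 counts, and of these 1 was 2-fold higher in DoHH-2 and 2 in GM01953. The backgrounds for this and the following lists are the 20.6% of all 12019 genes that were 2-fold higher in DoHH-2 and the 23.4% that were so in GM01953. IGLL1, a surrogate light chain gene of early B cells, had 1149 counts in DoHH-2 and 21 in GM01953, 4.50 times higher in DoHH-2 (2.93–7.30). Of its exon bases, 74.8% start a unique word. IGHA2 had a ratio of 0.00316 (7.71e-05–0.0193) on its 1 and 26 counts. The count in DoHH-2 is below the limit of 3, and 48.6% of the exon bases of IGHA2 start a unique word. IGLL5, named after its values were seen, had 5 and 16 counts.

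Both partners of the membrane immunoglobulin, which signal for the B-cell receptor, were measured. CD79A had 71 counts in DoHH-2 (34.9 CPM) and 43 in GM01953 (257), a ratio of 0.136 (0.0917–0.203) and thus opposite in direction to IGHM. CD79B had 99 and 7 counts, a ratio of 1.16 (0.544–2.97).

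Of the 14 genes for antibody folding and secretion, 6 were at least 2-fold higher in DoHH-2, 2 in GM01953 and 6 in neither. For DNAJB9, 1 of the 6, the call rests on 1 count in GM01953, below the limit of 3. The median log2 ratio of GM01953 over DoHH-2 was -0.46 for the 14 genes of the list, beside 0.02 over all genes. Among genes with at least 100 counts, 13 of the list, 5 were higher in DoHH-2 and 2 in GM01953, against 28% and 8.5% of 4775 genes, and the medians were -0.30 for the list and -0.36 for all, close to each other. HSPA5, the chaperone BiP that holds free heavy chains, had 1443 and 54 counts (ratio 2.20, 1.67–2.94). PDIA6, a disulfide isomerase, had 991 and 40 (2.04, 1.49–2.87). MZB1, which assists IgM assembly, had 480 and 11 (3.59, 1.99–7.24), and SSR4, a subunit of the translocon-associated complex, had 366 and 15 (2.01, 1.20–3.62). The genes past 2-fold towards GM01953, named after their values were seen, were DNAJC3, a co-chaperone of BiP, with 95 and 23 counts (0.340, 0.214–0.561), and SEC11C, a signal peptidase subunit, with 143 and 29 (0.406, 0.271–0.627).

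Of 11 genes for transcription and RNA processing of immunoglobulin genes, 10 had at least 10 counts, 1 of them 2-fold higher in DoHH-2 and 4 in GM01953, with a median log2 ratio of 0.36 in favour of GM01953. Of the 5 genes with at least 100 counts, 0 were higher in DoHH-2 and 2 in GM01953, against 28% and 8.5% of 4775 genes. At that cutoff the median log2 ratio of GM01953 over DoHH-2 was 0.36 for the list and -0.36 for all genes. POU2AF1, a coactivator of octamer-dependent immunoglobulin promoters, had 310 counts in DoHH-2 and 65 in GM01953 (ratio 0.392, 0.299–0.521). SPIB, a B-cell ETS factor, had 115 and 26 (0.364, 0.236–0.580). ELL2, an elongation factor linked to the secreted heavy chain form in plasma cells, had 23 and 8 (0.236, 0.102–0.611), and HNRNPLL, a splicing regulator of plasma cells, had 49 and 2 (2.01, 0.529–17.1). The call of HNRNPLL, the 1 towards DoHH-2, thus rests on 2 counts in GM01953, below the limit of 3.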

How the data were processed

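eIF4B iCLIP was measured in DoHH-2 (4 replicates) and GM01953 (2 replicates). The authors removed PCR duplicates with BBMap, demultiplexed with Je, mapped the trimmed reads to GRCh38 with HISAT2 and used iCount to obtain cDNA counts per cross-link position and gene. They deposited 1 table per cell line with the replicates pooled. The deposited counts are whole numbers without normalization, and the deposited FDR (q-value) per position comes from iCount. Versions of these tools and the annotation release were not given in the sources used here. No column held values of a sample that could not be mapped.

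The members and lists were chosen with earlier results of these data known. Rows were taken by gene symbol, positions of the files count from 0 and were written from 1, and counts were summed over unique positions of each gene and divided by the total of the cell line (CPM). Exons, introns and codons came from GENCODE release 44, in which 98.8% (DoHH-2) and 99.2% (GM01953) of the gene identifiers were found, and sequences from the GRCh38 genome. Genes that occur in near copies were checked with 31-nt words downstream of the cross-link that occur once in the genome. The minimum number of counts for a bound gene was taken from the study's methods, where it was applied to genes enriched over total RNA. That enrichment was not computed here, so that bound refers to the counts at positions below the FDR threshold. Intervals were computed with scipy 1.17.1 in Python 3.11.15, and the ratio interval was tested on simulated data. Companion genes were named when past 2-fold with at least 20 counts in a cell line, at most 4 per list by count. CD79B, IGLL5, DNAJB9, DNAJC3, SEC11C and single marker genes were named after their values were seen. Alternatives were FDR thresholds, positions instead of counts, exons or unique sequence alone, other totals, thinning of DoHH-2 and leaving out the highest position. The background of genes with at least 100 counts was added after the values were seen.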

Additional observations from a re-analysis of the deposited data

Results flagged for a closer look

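Cross-links that the tables assign to no gene lay beside several members, on the transcribed strand and within 10000 nt of the gene's ends. They are given because no comparison above uses them and because each sum is above the 3 counts taken as the limit. The other strand of the same stretch is given for the sums described first. No explanation was tested.

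In DoHH-2 the largest sum was 669 counts upstream of IGHM, of which 362 lay in a 300-nt window centred 5598 nt from the gene, and GM01953 had 26 counts upstream of IGHM, 10 of them in a window centred 5571 nt away. The other strand held 74 and 3 counts there. The stretch downstream of IGHA1 held 381 counts in DoHH-2, 92 of them in 1 window of 300 nt, with 0 on the other strand, and 8 in GM01953, with 8 on the other strand. Upstream of IGHA1 DoHH-2 had 46 counts, fewer than the 91 on the other strand. Upstream of IGKC GM01953 had 23 counts, 20 of them in 1 window of 300 nt, where DoHH-2 had 2 in the whole stretch. The other strand held 0 and 1 counts.

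The other sums in DoHH-2 were smaller, with at most 3 counts on the other strand. They were 10 downstream of IGHM, 10 upstream and 10 downstream of IGHD, 7 upstream of IGHG1, 5 upstream and 36 downstream of IGLC2, 39 upstream of IGLC3 and 32 downstream of JCHAIN. The stretches between IGHM and IGHD and between IGLC2 and IGLC3 overlap, and their counts are partly the same.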

How the results depend on the processing

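No paired analysis was possible because the tables hold no columns of single replicates, and leaving out a replicate was likewise not possible. Of 127 alternative values, 91 stayed within counting error (or within 1.5 times for a number of genes), 36 moved, and 0 turned the direction of a member that was past 2-fold in the values reported above. The cause was not tested.

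In place of the 4 members at least 2-fold higher in DoHH-2, there were 2 by the number of positions (IGHM and IGHD) and 2 with an FDR below 0.01 (IGHM and JCHAIN). At unique sequence alone there were 3, and without the highest position 3. Over the alternatives the ratio of DoHH-2 over GM01953 ranged from 2.16 to 5.13 for IGHM, 1.12 to 7.85 for IGHD, 1.55 to 6.52 for JCHAIN, 0.363 to 1.96 for IGKC, 0.372 to 1.12 for IGHA1 and 2.00 to 11 for IGLC2. Against the 0 members reported as 2-fold higher in GM01953, IGHA1 was past 2-fold that way with an FDR below 0.05 (0.424), with an FDR below 0.01 (0.391) and with IGHA2 added (0.372). The IGKC value of 0.363 is by the number of positions, which could not exceed 0.490 for this gene. No IGKC value exists for positions listed under 1 gene alone. No IGLC2 ratio exists for the FDR thresholds, for unique sequence or without the highest position, since its 1 count in GM01953 drops out there.

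The heavy chain share of IGHM in DoHH-2 was 86.5% with an FDR below 0.05, 62.5% by positions and 78.4% in exons, and that of IGHA1 was 5.90% with an FDR below 0.05, 12.2% by positions and 12.2% per kb. With IGHA2 and IGHG4 added, the IGHM share in GM01953 was 46.4%. The IGKC share of light chain counts in DoHH-2 was 92.0% with an FDR below 0.05, 88.4% by positions, 96.7% at unique sequence and 93.9% after thinning, and in GM01953 it was 100% with an FDR below 0.05 and at unique sequence. Bound members were 4 in DoHH-2 after thinning without an FDR threshold, and 2 in GM01953 with more than 50 counts. Counts of members in exons in DoHH-2 were 99.2% with an FDR below 0.05 and 90.8% by positions. IGKC counts in the 3′ UTR were 89.7% in DoHH-2 and 61.4% in GM01953 with an FDR below 0.05, and 37.2% in DoHH-2 by positions. The depth of GM01953 limits every value that rests on under 10 counts there.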

Other observations

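Variable and joining segments, which are not among the members, were summed per locus. In DoHH-2 the kappa variable segments held 1883 counts, 99.2% of them on IGKV4-1, and in GM01953 they held 67 counts on 4 segments, of which IGKV4-1 had 33. Heavy chain variable segments held 531 counts in DoHH-2, with 444 on IGHV3-7, and 23 in GM01953, with 12 on IGHV3-7. Lambda variable segments had 7 counts in DoHH-2 and 2 in GM01953. The joining segments had 17 (heavy), 1 (kappa) and 15 (lambda) counts in DoHH-2.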
